A study of Homo sapiens with 12 samples.

Results

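Aminoacyl-tRNA synthetases were examined as a gene family, with the members taken as every array probe whose annotated symbol was one of 36 listed cytosolic or mitochondrial synthetases. Of these 36 genes, 34 had a named probe among 20046 named genes of the array, 18 of them cytosolic and 16 mitochondrial. CARS1 had no named probe in the annotation used here. All 34 were above background on all 12 arrays by the probe that represents them, so each passed the filter on dim probes, which 10371 of the 20046 named genes passed.

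The cells were MCF10A, a human mammary epithelial line that is not transformed. ERBB4 is a receptor tyrosine kinase whose soluble intracellular part (ICD) can be cut free. One group stably expressed this ICD as the CYT1 form, a second as the CYT2 form, and the third carried the control vector (VEC). All 3 groups grew in medium with 10% serum. CYT1 differs from CYT2 by a short stretch that holds a docking site for phosphoinositide 3-kinase. Whether each line was 1 clone or a pool, and which promoter drove the ICD, is not given in the sources used here. Total RNA was hybridised as biotinylated cRNA to 12 Illumina bead arrays, 4 per group, which the labels number as 2 biological replicates with 2 technical arrays each.

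Synthetases join amino acids to their matching tRNAs, the step that sets the genetic code. The cytosol and the mitochondrion mostly use separate enzymes, all encoded in the nucleus, with KARS1 and GARS1 supplying both compartments from 1 gene each. Several cytosolic synthetases sit together in the multisynthetase complex, and many cytosolic synthetase genes are known targets of ATF4, the transcription factor of the amino acid starvation response.

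Promoter sequences are shown first because 1 DNA element is more frequent in them than in other genes. The windows run from 250 bases before to 50 bases after each RefSeq transcript start (GRCh38.p14), and 29 of the 34 genes matched one. AARS2, LARS1, VARS1, VARS2 and YARS1 did not match. The ATF4 element TGATGNAA, searched on both strands, was found for 7 of the 29 genes (24.1%), against 2.73% of 8420 tested genes with a window and 4.46% of 27305 genes in the whole table. It stood in 6 of 15 cytosolic genes (40%) and in 1 of 14 mitochondrial genes (7.14%). Of the 7 sites, 6 follow 5′ to 3′ on the gene's own strand with 12 bases on either side, and capitals mark the 8 bases that match.
AARS1 (chr16:70289674-70289705, minus strand): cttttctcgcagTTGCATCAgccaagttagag
GARS1 (chr7:30594833-30594864, plus strand): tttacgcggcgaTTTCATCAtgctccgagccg
MARS1 (chr12:57488052-57488083, plus strand): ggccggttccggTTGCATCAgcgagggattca
NARS1 (chr18:57621803-57621834, minus strand): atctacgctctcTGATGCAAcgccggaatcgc
TARS1 (chr5:33440955-33440986, plus strand): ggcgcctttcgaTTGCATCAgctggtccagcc
YARS2 (chr12:32756075-32756106, minus strand): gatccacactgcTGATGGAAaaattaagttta
In AARS1, GARS1, MARS1 and TARS1 the element reads in reverse complement, and NARS1 and YARS2 carry it as written. A match describes letters in the window and does not show that a factor binds there.

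The element was set beside the measured changes. Among the 7 genes with it, the median log2 fold change was -0.11 in CYT1 and -0.18 in CYT2 against VEC, and among the other 22 matched genes it was -0.18 and -0.26. Of the 7, GARS1 and MARS1 passed the test as lower in CYT1 and MARS1 alone passed in CYT2. A second motif, the E-box CACGTG bound by MYC and its relatives, was found for CARS2, EARS2, IARS1 and MARS2, 4 of 29 genes (13.8%), against 12.8% of tested genes. The motif of NRF1 (GCGC, any base, then TGCGC), a regulator of nuclear genes for mitochondrial proteins, was found for 6 of 29 (20.7%), against 13.8% of tested genes. These were FARSB, IARS2, MARS2, PARS2, SARS1 and TARS1.

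On each array 17514 to 18721 of 47323 probes (37% to 39.6%) were above background. The ERBB4 probe was above background on 0 of 12 arrays, so it gives no check of the labels. Arrays that share a technical number lay closer together than arrays that share a biological number, with SDs of the log2 difference over 13718 probes of 0.238 to 0.275 against 0.256 to 0.30 over the 3 groups. The biological numbers therefore do not mark the closest arrays, and p-values measure the spread between averages whose independence the data do not settle. Averaging by technical number instead gave 5200 called probes for CYT1 over VEC, against 6229 of 17356 (35.9%) as labelled, and 4269 for CYT2 over VEC, against 5272 (30.4%). Between CYT2 and CYT1 it gave 23, against 82 (0.472%). Results for single genes that change under this other averaging are given with their value. Cell-type markers also moved: the summed normalised signal of 11 fibroblast markers was 11300 to 12800 in CYT1, 9230 to 10300 in CYT2 and 3200 to 3780 in VEC, with COL3A1, LUM, PDGFRB and THY1 at 0 arrays detected. This sum is weighted to its brightest genes, FBLN1 (mean log2 signals of 12.79 in CYT1, 12.76 in CYT2 and 11.57 in VEC) and DCN (11.86, 10.83 and 6.79). Of the 6 fibroblast markers tested, 5 were called higher in each comparison, against 18.6% and 16.1% of all genes. POSTN was above background on 4 CYT1, 1 CYT2 and 0 VEC arrays, and COL1A1 on 4, 4 and 1. Both passed the filter on dim probes only through ICD groups, where they were higher, so their calls are not taken as a result. The other called markers, DCN, FAP and FBLN1, were above background on all 12 arrays. COL1A2 was not called, at -0.24 in CYT1 and -0.2 in CYT2. The summed signal of 7 basal epithelial markers, all detected on all 12 arrays, was 18400 to 20400 in CYT1, 19100 to 21400 in CYT2 and 23800 to 26200 in VEC. It is weighted to its brightest gene, LAMB3 (12.98 in CYT1, 13.16 in CYT2 and 13.69 in VEC). In CYT1 2 were called higher and 4 lower, and in CYT2 2 and 3, against 20.7% and 17.6% of all genes lower. KRT5 (log2 fold changes of 1.08 in CYT1 and 0.95 in CYT2) and KRT14 (1.6 and 0.51) were called higher in both. ITGA6 (-1.84 and -1.7), LAMB3 (-0.71 and -0.53) and CDH1 (-0.63 and -0.42) were called lower in both, and CDH3 (-0.43) in CYT1. Of 7 endothelial markers CDH5, CLDN5, KDR and VWF were detected on 0 arrays, of 7 leukocyte markers CD3E, LYZ and PTPRC, and of 8 luminal markers PGR and TFF1. The summed signal of the leukocyte markers was 4070 to 4730 in CYT1, 3470 to 4090 in CYT2 and 3270 to 3420 in VEC. In that list SRGN, above background on 0 VEC arrays, was higher by at least 38.6-fold in CYT1 and 28.1-fold in CYT2. SRGN passed the filter on dim probes only through the ICD groups, so its calls are not taken as a result. CSF1R was called higher in CYT2 (0.44) and not in CYT1 (0.11). CD14 in CYT1 (-0.75) and CD68 in both (-0.34 and -0.72) were called lower. The part of these shifts in the synthetase results was not tested.

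With the CYT1 ICD, the synthetases of valine and methionine were lower in both compartments, together with FARSA and FARS2 for phenylalanine, NARS2 for mitochondrial asparagine, KARS1 for lysine and GARS1 for glycine. The mitochondrial enzymes VARS2 and MARS2 had log2 fold changes of -1.03 ± 0.10 and -1.02 ± 0.11 (errors here are the model's SE, n = 2 replicates in each group), 2.04-fold and 2.03-fold lower than VEC. MARS2 was at -0.62 without background correction and at -0.67 with the deposited log2 values, and VARS2 at -0.98 and -1.14. In all, 11 of 34 synthetases (32.4%) passed limma's test at an adjusted p under 0.05, 2 higher and 9 lower. Over all genes tested 39.3% passed, 18.6% higher and 20.7% lower. The family's share of calls was thus close to the background, with 26.5% of members lower and 5.88% higher.

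With the CYT2 ICD the picture was similar in number. Again 11 of 34 passed, 1 higher and 10 lower, against 33.6% of all genes (16.1% higher and 17.6% lower). At an unadjusted p under 0.05 there were 15 of 34 members in CYT1 and 21 in CYT2, beside 5191 and 4763 of 10371 genes. Both comparisons use the same VEC arrays, so their results are not independent of each other. FARSA, KARS1, MARS1, VARS1, FARS2, MARS2, NARS2 and VARS2 were lower in both, 8 genes, and FARSB was higher in both. The share of all genes called in both comparisons is not given here, so these joint counts have no background to be read against. GARS1 and SARS2 passed in CYT1 and not in CYT2, and RARS1 and YARS1 passed in CYT2 and not in CYT1. None of these 4 passed the test of the difference between CYT2 and CYT1.

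**Figure D1:**
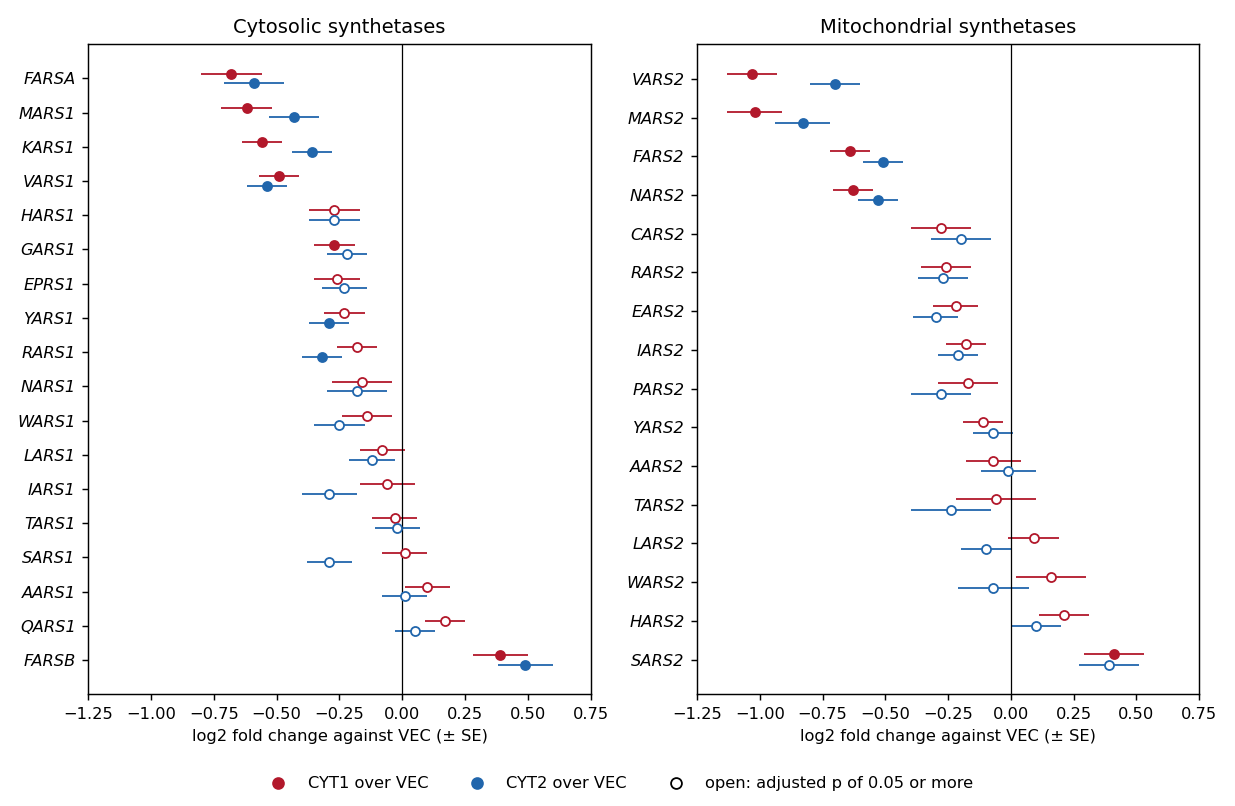
Log2 fold change against VEC (x axis, ± SE) for each of the 18 cytosolic (left) and 16 mitochondrial (right) synthetases, with CYT1 in red above CYT2 in blue and open circles for an adjusted p of 0.05 or more. VARS2 and MARS2 lie farthest left in both comparisons, at -1.03 and -1.02 in CYT1, and FARSB and SARS2 farthest right.

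Cytosolic and mitochondrial synthetases had similar counts of calls and similar medians. KARS1 and GARS1, which serve both compartments, are counted as cytosolic here. In CYT1, 1 of 18 cytosolic genes was higher and 5 lower, and 1 of 16 mitochondrial genes was higher and 4 lower. The median log2 fold change was -0.17 in each class, against -0.05 over all 10371 genes. In CYT2, 1 cytosolic gene was higher and 6 lower with a median of -0.26, and 0 mitochondrial genes were higher and 4 lower with a median of -0.23, against -0.05 over all genes. The mitochondrial class spread more widely in CYT1, with log2 fold changes from -1.03 to 0.41 (SD 0.41 across genes) against -0.68 to 0.39 (SD 0.28) for the cytosolic class.

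The balance of calls depended on the scaling. Of all probes called in CYT1, 46.5% were higher, against 33.6% with median scaling over all probes, which moved the median of all probes to -0.13, and 31.3% with the deposited log2 values. In CYT2 the shares were 48.5%, 37.1% and 31.2%. The number of synthetases called lower was then 18 and 21 in CYT1, where 4648 and 5037 of 17356 probes were called lower. In CYT2 it was 17 and 21, beside 3757 and 4560 probes. Under every setting tried the median of each class against VEC was below 0.

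Counting signs without a test, 26 of 34 members (76.5%) had a log2 fold change below 0 in CYT1 and 29 (85.3%) in CYT2, against 54.8% and 56.1% of all genes. All 4 CYT1 arrays lay below all 4 VEC arrays for 16 members and above them for 1, where 42.2% of all genes did not overlap, 22.8% being wholly lower and 19.4% wholly higher. For CYT2 the counts were 16 and 2, against 39.3% of all genes, 21.6% lower and 17.7% higher. In bulk RNA a lower level per cell and fewer cells with that level cannot be told apart.

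**Figure D2:**
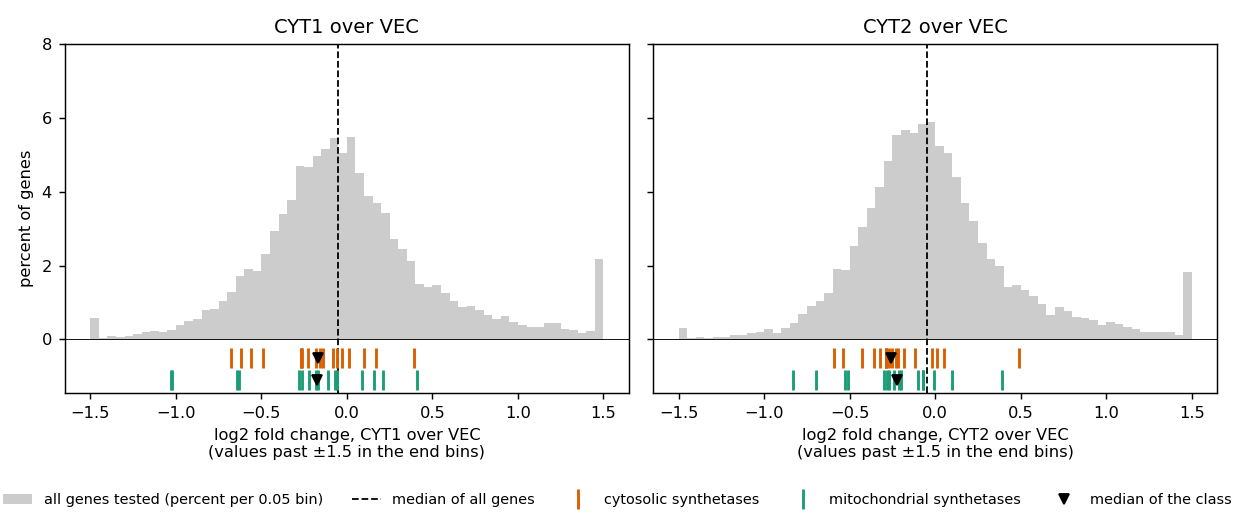
Percent of the 10371 tested genes per bin of log2 fold change (grey), CYT1 over VEC on the left and CYT2 over VEC on the right, with ticks below for each synthetase and a triangle at the median of its class. The class medians of -0.17 and -0.17 in CYT1 and of -0.26 and -0.23 in CYT2 lie left of the median of all genes at -0.05, and 4 mitochondrial ticks stand apart at the low end in each comparison.

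MARS2 and VARS2 charge methionine and valine onto mitochondrial tRNAs. In the order biological 1 and 2, each with its technical arrays 1 and 2, MARS2 had normalised log2 signals of 7.09, 6.99, 6.85 and 6.72 in CYT1, 7.18, 7.07, 7.22 and 6.96 in CYT2, and 7.94, 7.98, 8.02 and 7.80 in VEC. Every ICD array lay below every VEC array, while CYT1 and CYT2 overlapped. The change was -1.02 ± 0.11 in CYT1 (limma adjusted p = 0.0012) and -0.83 ± 0.11 in CYT2 (adjusted p = 0.0032, and -0.51 without background correction). VARS2 had 10.54, 10.72, 10.61 and 10.60 in CYT1, 11.03, 11.03, 10.89 and 10.81 in CYT2, and 11.67, 11.78, 11.51 and 11.63 in VEC. The 3 groups did not overlap at all, with CYT1 lowest and VEC highest. The change was -1.03 ± 0.10 in CYT1 (adjusted p = 0.000955) and -0.70 ± 0.10 in CYT2 (adjusted p = 0.00461).

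Their cytosolic counterparts MARS1 and VARS1 were also lower, and the size of change was not tested between compartments. With the deposited log2 values MARS2 stood at -0.67 and MARS1 at -0.71 in CYT1, and at -0.57 and -0.53 in CYT2. MARS1, which charges methionine in the cytosol and is part of the multisynthetase complex, had 9.60, 9.90, 9.93 and 9.32 in CYT1, 9.87, 10.09, 9.71 and 9.85 in CYT2, and 10.31, 10.36, 10.24 and 10.32 in VEC. The VEC arrays lay close together and above all ICD arrays, which were more scattered. MARS1 changed by -0.62 ± 0.10 in CYT1 (adjusted p = 0.006) and -0.43 ± 0.10 in CYT2 (adjusted p = 0.0256), and the call was lost with either set of technical arrays alone. The CYT2 call was also lost without VEC replicate 1 (adjusted p = 0.109), VEC replicate 2 (0.084) or CYT2 replicate 2 (0.113). VARS1, the cytosolic valine enzyme, had 10.68, 10.62, 10.68 and 10.65 in CYT1, 10.65, 10.68, 10.56 and 10.56 in CYT2, and 11.21, 11.03, 11.14 and 11.23 in VEC. Here both ICD groups were tight and did not reach the VEC arrays, with changes of -0.49 ± 0.08 (adjusted p = 0.00679) and -0.54 ± 0.08 (adjusted p = 0.00619). A second VARS1 probe, above background on 2 CYT1, 3 CYT2 and 4 VEC arrays, gave -0.60 ± 0.20 in CYT1 (adjusted p = 0.0606) and -0.26 ± 0.20 in CYT2 (adjusted p = 0.365) and passed in neither.

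The promoter windows of MARS1 and MARS2 are shown whole, since both genes of the methionine pair were lower and their motifs differ. Capitals mark the ATF4 element in MARS1, and an NRF1 motif, a second NRF1 motif and an E-box, in that order, in MARS2.
MARS1 (chr12:57487818-57488117, plus strand): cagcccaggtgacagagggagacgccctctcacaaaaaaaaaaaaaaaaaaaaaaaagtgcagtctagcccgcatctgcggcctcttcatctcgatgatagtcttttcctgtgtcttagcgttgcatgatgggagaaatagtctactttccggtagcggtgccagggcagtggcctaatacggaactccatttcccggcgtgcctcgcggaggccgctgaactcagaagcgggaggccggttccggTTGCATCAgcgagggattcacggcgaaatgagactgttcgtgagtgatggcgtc
MARS2 (chr2:197705119-197705418, plus strand): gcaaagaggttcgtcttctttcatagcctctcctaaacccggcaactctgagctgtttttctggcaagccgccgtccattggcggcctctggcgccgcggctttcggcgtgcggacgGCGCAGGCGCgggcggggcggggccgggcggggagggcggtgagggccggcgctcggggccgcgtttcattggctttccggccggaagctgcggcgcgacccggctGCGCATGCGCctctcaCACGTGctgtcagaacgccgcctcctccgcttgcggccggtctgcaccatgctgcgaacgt
In MARS1 the element begins 4 bases before the transcript start and runs across it. In MARS2 the E-box begins 11 bases before the start.

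The phenylalanine enzymes held calls in both directions. FARSA and FARSB encode the alpha and beta subunits of the cytosolic phenylalanine synthetase, and FARS2 encodes the single-chain mitochondrial enzyme. FARSA had 7.93, 8.01, 8.13 and 8.25 in CYT1, 8.29, 8.22, 7.87 and 8.27 in CYT2, and 8.64, 8.78, 8.81 and 8.80 in VEC. Its ICD arrays were all below its VEC arrays, with changes of -0.68 ± 0.12 in CYT1 (adjusted p = 0.00649) and -0.59 ± 0.12 in CYT2 (adjusted p = 0.0125, or 0.0676 without VEC replicate 2 and 0.0659 without CYT2 replicate 2). FARSB had 13.15, 13.84, 13.31 and 13.86 in CYT1, 13.58, 13.53, 13.65 and 13.79 in CYT2, and 13.06, 13.04, 13.35 and 13.13 in VEC. CYT2 lay wholly above VEC, whereas the CYT1 arrays of technical number 1 overlapped VEC and those of technical number 2 did not.

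FARSB passed as higher in both comparisons, at 0.39 ± 0.11 in CYT1 (adjusted p = 0.0348) and 0.49 ± 0.11 in CYT2 (adjusted p = 0.0192). The CYT1 value was 0.02 from technical arrays 1 alone and 0.76 from technical arrays 2 alone. With arrays averaged by technical number the adjusted p was 0.168 in CYT1 and 0.107 in CYT2, so the FARSB calls depended on the numbering. They were also lost in CYT1 without VEC replicate 1 (0.154), CYT1 replicate 1 (0.0794) or CYT1 replicate 2 (0.133), and in CYT2 without VEC replicate 1 (0.0939) or CYT2 replicate 2 (0.0937). FARSA passed in CYT1 under every alternative tried. FARS2 had 9.40, 9.33, 9.49 and 9.25 in CYT1, 9.52, 9.52, 9.63 and 9.34 in CYT2, and 10.03, 9.92, 10.00 and 10.10 in VEC. All ICD arrays were below all VEC arrays, with changes of -0.64 ± 0.08 in CYT1 (adjusted p = 0.00218) and -0.51 ± 0.08 in CYT2 (adjusted p = 0.00613).

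The windows of the 2 cytosolic subunit genes are given because their probes moved in opposite directions, with capitals for the NRF1 motif in FARSB. None of the 3 motifs searched was found in the FARSA window.
FARSA (chr19:12933662-12933961, minus strand): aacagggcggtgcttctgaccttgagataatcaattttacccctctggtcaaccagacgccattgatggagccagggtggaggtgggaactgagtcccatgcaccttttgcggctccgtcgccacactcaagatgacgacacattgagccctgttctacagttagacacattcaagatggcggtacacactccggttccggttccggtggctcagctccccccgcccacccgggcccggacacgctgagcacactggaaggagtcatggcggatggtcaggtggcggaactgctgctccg
FARSB (chr2:222656043-222656342, minus strand): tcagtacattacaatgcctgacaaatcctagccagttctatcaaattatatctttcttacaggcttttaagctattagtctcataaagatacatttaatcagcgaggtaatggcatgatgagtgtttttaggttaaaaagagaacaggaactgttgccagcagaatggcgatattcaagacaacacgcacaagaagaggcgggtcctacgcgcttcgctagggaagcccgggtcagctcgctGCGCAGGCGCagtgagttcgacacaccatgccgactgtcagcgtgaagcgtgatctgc

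**Figure D3:**
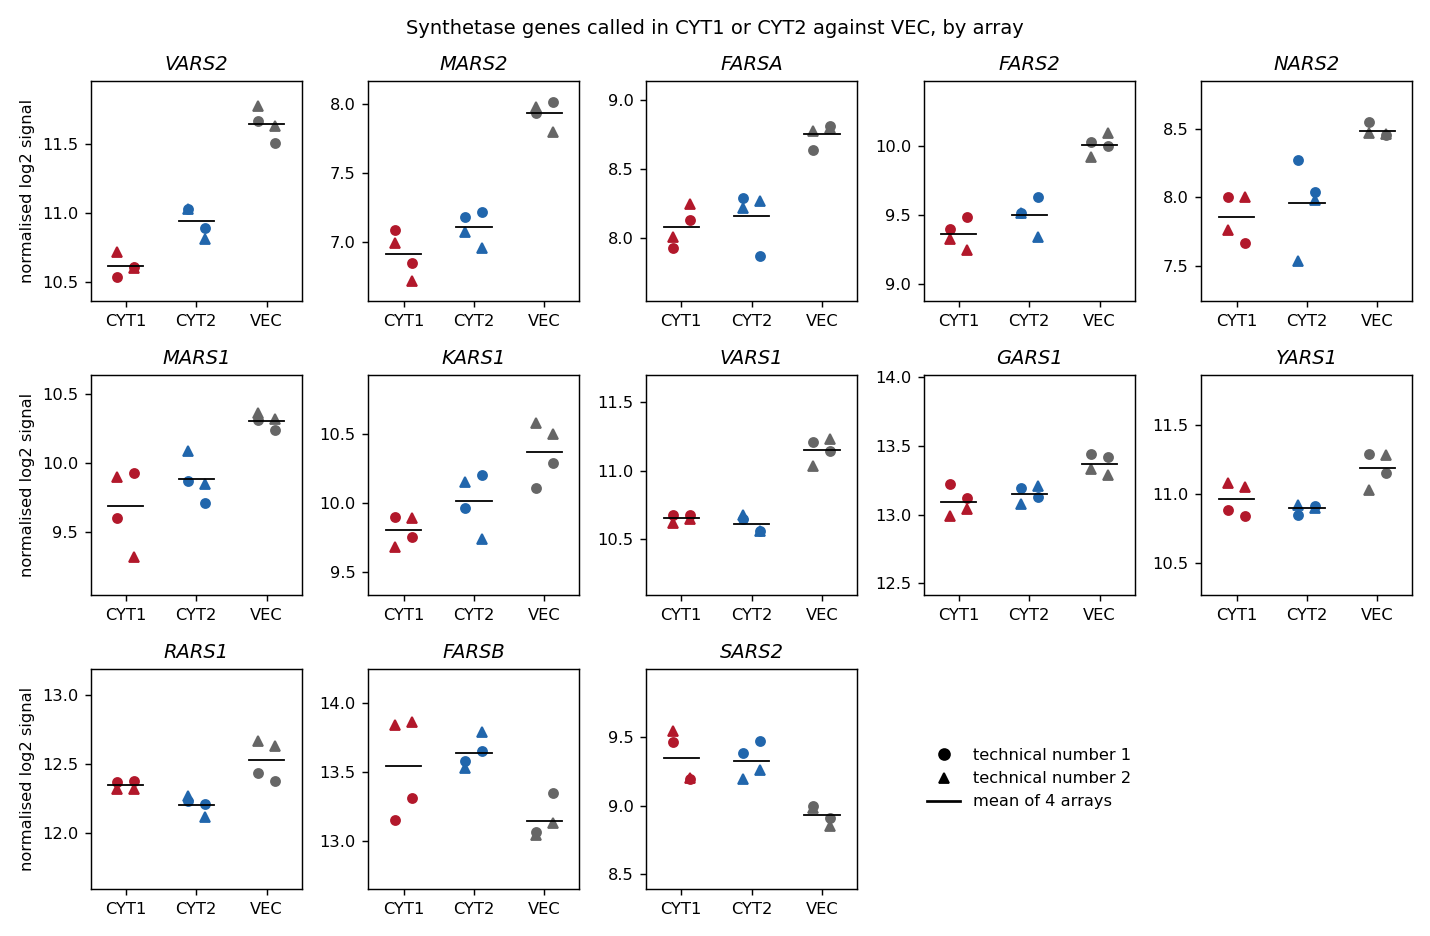
Normalised log2 signal (y axis, its own range per gene but the same span) on each of the 12 arrays for the 13 synthetases called in CYT1 or CYT2 against VEC, with circles for technical number 1, triangles for technical number 2 and a line at the mean of 4 arrays. For MARS2, VARS2, FARSA, FARS2, NARS2, MARS1 and VARS1 all CYT1 and CYT2 points lie below all VEC points, and the CYT1 points of FARSB split by technical number.

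NARS2, the mitochondrial asparagine enzyme, had 8.0, 7.76, 7.67 and 8.0 in CYT1, 8.27, 7.54, 8.04 and 7.98 in CYT2, and 8.55, 8.47, 8.45 and 8.46 in VEC. The VEC arrays were tight and above all others, and the CYT2 arrays spanned the widest range. Its changes were -0.63 ± 0.08 in CYT1 (adjusted p = 0.00296) and -0.53 ± 0.08 in CYT2 (adjusted p = 0.00678), and the calls held without each replicate in turn. The CYT1 call was lost with technical arrays 2 alone (adjusted p = 0.0658) and the CYT2 call with technical arrays 1 alone (-0.34, adjusted p = 0.192). The cytosolic NARS1, which carries the ATF4 element, was at -0.16 (adjusted p = 0.337) and -0.18 (adjusted p = 0.302) and passed in neither.

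KARS1 and GARS1 serve both compartments. KARS1, for lysine, had 9.90, 9.68, 9.75 and 9.89 in CYT1, 9.96, 10.15, 10.20 and 9.74 in CYT2, and 10.11, 10.58, 10.29 and 10.50 in VEC. CYT1 lay below VEC throughout and CYT2 overlapped it. Its change was -0.56 ± 0.08 in CYT1 (adjusted p = 0.00366) and -0.36 ± 0.08 in CYT2 (adjusted p = 0.0223, or 0.106 when averaged by technical number). Without any 1 of the 4 replicates of CYT2 and VEC its adjusted p in CYT2 was 0.0592 to 0.104, and the CYT1 call was lost with technical arrays 1 alone (0.113). In CYT2 KARS1 stood at -0.12 with technical arrays 1 alone (adjusted p = 0.603) and at -0.59 with technical arrays 2 alone (adjusted p = 0.0667). GARS1, for glycine, had 13.22, 12.99, 13.12 and 13.04 in CYT1, 13.19, 13.08, 13.13 and 13.21 in CYT2, and 13.44, 13.33, 13.42 and 13.29 in VEC. All ICD arrays were below all VEC arrays, at -0.27 ± 0.08 in CYT1 (adjusted p = 0.0372) and -0.22 ± 0.08 in CYT2 (adjusted p = 0.085). The GARS1 call held under 7 of 19 alternatives and was lost without any 1 of the 6 replicates (adjusted p = 0.0619 to 0.14) and when arrays were averaged by technical number (0.107).

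RARS1 and YARS1, the cytosolic arginine and tyrosine enzymes, passed in CYT2. RARS1 had 12.37, 12.32, 12.38 and 12.32 in CYT1, 12.23, 12.27, 12.21 and 12.12 in CYT2, and 12.44, 12.67, 12.38 and 12.63 in VEC. YARS1 had 10.88, 11.08, 10.84 and 11.05 in CYT1, 10.85, 10.92, 10.91 and 10.90 in CYT2, and 11.29, 11.03, 11.15 and 11.28 in VEC. In both genes the CYT2 arrays were below all VEC arrays. RARS1 changed by -0.32 ± 0.08 in CYT2 (adjusted p = 0.0288) and stood at -0.18 in CYT1 (adjusted p = 0.129), and YARS1 changed by -0.29 ± 0.08 (adjusted p = 0.0357) and stood at -0.23 (adjusted p = 0.0685). Neither CYT2 call held when arrays were averaged by technical number (0.089 and 0.107). Without any 1 of the 4 replicates of CYT2 and VEC the adjusted p was 0.0718 to 0.127 for RARS1 and 0.0993 to 0.146 for YARS1, and for YARS1 it was 0.0567 without either CYT1 replicate.

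SARS2, the mitochondrial serine enzyme, was the mitochondrial gene called higher. It had 9.46, 9.54, 9.19 and 9.20 in CYT1, 9.38, 9.19, 9.47 and 9.26 in CYT2, and 9.0, 8.98, 8.91 and 8.85 in VEC. All ICD arrays were above all VEC arrays. The change was 0.41 ± 0.12 in CYT1 (adjusted p = 0.0447) and 0.39 ± 0.12 in CYT2 (adjusted p = 0.0584), and averaged by technical number both passed, at an adjusted p of 0.033 and 0.046. The SARS2 call in CYT1 held under 7 of 19 alternatives, and without a replicate other than CYT1 replicate 2 its adjusted p was 0.0702 to 0.172. The cytosolic SARS1 stood at 0.01 in CYT1 and at -0.29 in CYT2 (adjusted p = 0.0573).

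Set side by side, 15 amino acids had a separate measured gene for each compartment, with EPRS1, which charges both glutamate and proline, counted for each. Lysine and glycine, where KARS1 and GARS1 serve both compartments, are left out of this list. Among the 15, methionine and valine were those with a lower call in both compartments in CYT1 and in CYT2, and phenylalanine had a lower call in both through FARSA and FARS2. Alanine, glutamate, histidine, isoleucine, leucine, proline, threonine and tryptophan had no call in either compartment by the representing probes. Histidine had values of opposite sign, with HARS1 at -0.27 in both comparisons and HARS2 at 0.21 and 0.10, and none of these passed.

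**Figure D4:**
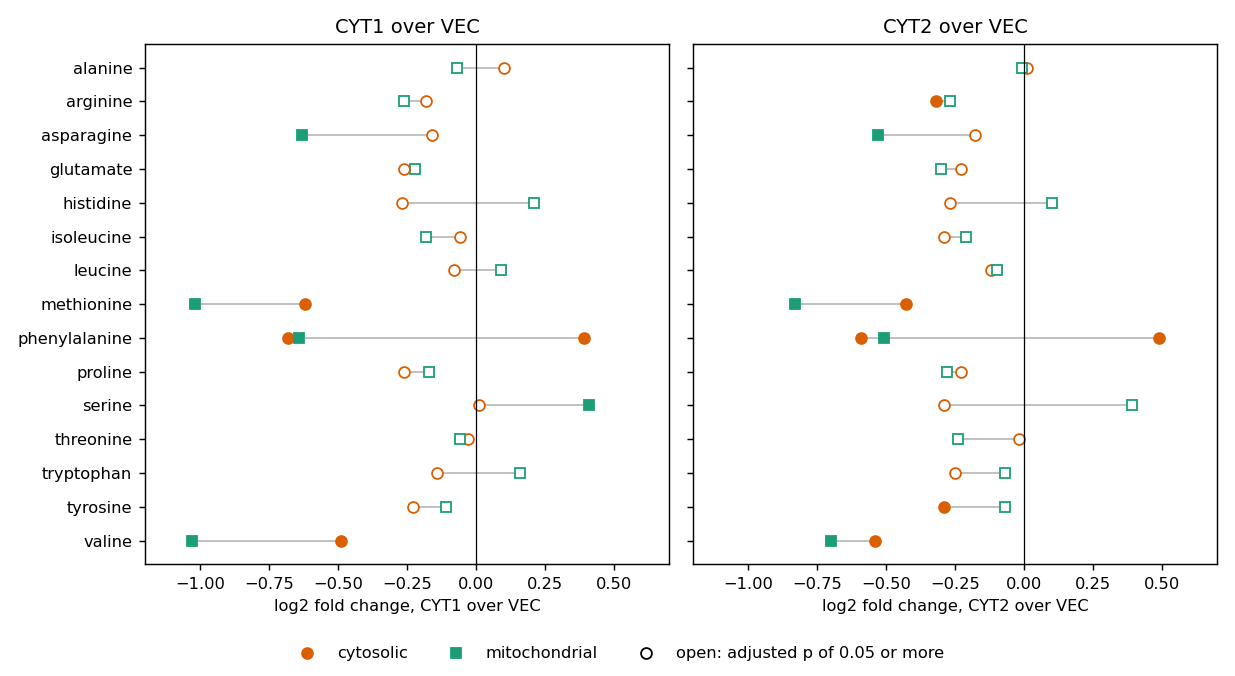
Log2 fold change over VEC (x axis) of the cytosolic (circles) and mitochondrial (squares) enzymes for 15 amino acids with a separate gene for each, CYT1 on the left and CYT2 on the right, filled where the adjusted p was under 0.05. Valine and methionine have both symbols filled left of 0 in both comparisons, and phenylalanine has filled cytosolic circles on either side of 0 for FARSA and FARSB.

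The remaining members are those with no call, so their narrow range follows in part from that choice. The lack of a call does not show that a gene was unchanged. The 10 cytosolic genes called in neither comparison, AARS1, EPRS1, HARS1, IARS1, LARS1, NARS1, QARS1, SARS1, TARS1 and WARS1, ran from -0.27 to 0.17 in CYT1 and from -0.29 to 0.05 in CYT2. The 11 mitochondrial genes AARS2, CARS2, EARS2, HARS2, IARS2, LARS2, PARS2, RARS2, TARS2, WARS2 and YARS2 ran from -0.28 to 0.21 in CYT1 and from -0.30 to 0.10 in CYT2. WARS1, the tryptophan enzyme, differed by probe. Its representing probe gave -0.14 in CYT1 (adjusted p = 0.344), while a second probe gave -0.36 ± 0.08 (adjusted p = 0.0164). Second probes of FARSB, IARS1 and MARS2 were above background on 0 of 12 arrays.

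The multisynthetase complex was counted apart. Of 7 measured complex members, EPRS1, IARS1, KARS1, LARS1, MARS1, QARS1 and RARS1, 2 were lower in CYT1 and 3 in CYT2, with medians of -0.18 and -0.29. Of the 11 cytosolic enzymes outside it, 3 were lower and 1 higher in each comparison, with medians of -0.16 and -0.25. Over all genes 20.7% were lower and 18.6% higher in CYT1, and 17.6% and 16.1% in CYT2, with a median of -0.05 in each. Members inside and outside the complex were not tested against each other. AIMP1, a scaffold of the complex, was above background on 0 of 12 arrays.

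No synthetase passed the test of the difference between the CYT2 and CYT1 forms after adjustment. Of 34 members 0 passed limma's test (smallest adjusted p = 0.186), against 57 of 10371 genes (0.55%, 0.241% higher and 0.309% lower). At an unadjusted p under 0.05 there were 3 members, against 1871 of 10371 genes. Without background correction 1 member passed in each direction, SARS1 as lower and VARS2 as higher. VARS2 passed too with the deposited log2 values and with all 12 arrays and the biological number as a random block. The fit to the deposited values gave every probe the same variance. The random-block fit had 9 residual degrees of freedom from arrays that share replicates. Neither is a stricter test than the fit as reported. The largest difference was that of VARS2, at 0.33 ± 0.10 (95% interval 0.08 to 0.57, adjusted p = 0.191), followed by SARS1 at -0.30 ± 0.09 (-0.53 to -0.08, adjusted p = 0.186) and KARS1 at 0.21 ± 0.08 (0.01 to 0.41, adjusted p = 0.267) among those whose interval leaves out 0. All CYT2 arrays were above all CYT1 arrays for VARS2 and below them for SARS1 and RARS1, 3 of 34 members, and such separation held for 13.2% of all genes, 6.76% higher and 6.39% lower. For the other 31 members the interval held 0. Over all 34 the intervals ran from -0.58 to 0.57, so a difference of up to about that size would be allowed for some members.

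Other genes of tRNA charging and translation were read from lists of related genes. Their counts stand beside a background over all genes of 18.6% higher and 20.7% lower in CYT1, and 16.1% and 17.6% in CYT2. Of 7 tested genes for the remaining mitochondrial charging and elongation steps, 0 were called higher in either comparison. Called lower in each were GFM1, a mitochondrial elongation factor, and QRSL1, a subunit of the enzyme that makes mitochondrial glutaminyl-tRNA. QRSL1 was above background on 0 CYT1, 1 CYT2 and 4 VEC arrays, and was at least 1.48-fold lower in CYT1. It passed the filter on dim probes only through VEC, the group where it was highest, so its calls are not taken as a result. GFM1 changed by -0.44 ± 0.09 (adjusted p = 0.0135) and -0.56 ± 0.09 (adjusted p = 0.00695). Of 5 cytosolic elongation factors 1 was higher in each, EEF1D, the exchange factor subunit, at 0.28 ± 0.08 in both.

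Genes of tRNA processing and export had 1 higher and 5 lower of 11 in CYT1 (9.09% and 45.5%), and 1 and 4 in CYT2 (9.09% and 36.4%). Over all genes 18.6% were higher and 20.7% lower in CYT1, and 16.1% and 17.6% in CYT2. The 3 splicing endonuclease subunits of this list did not move together: TSEN54 changed by -0.85 ± 0.10 and -0.60 ± 0.10 and TSEN15 by -0.38 ± 0.08 and -0.30 ± 0.08, but TSEN34 by 0.62 ± 0.08 and 0.61 ± 0.08. RPP40 and POP1, subunits of the RNase P that trims tRNA 5′ ends, changed by -0.67 ± 0.08 and -0.64 ± 0.08 in CYT1 and by -0.43 ± 0.08 and -0.57 ± 0.08 in CYT2. Of 5 genes for editing and selenocysteine charging 1 was lower in each, DTD2, which removes mischarged amino acids from tRNA, at -0.75 ± 0.17 and -0.61 ± 0.17.

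The ATF4 pathway was mixed in direction. Of 19 tested genes 4 were higher and 7 lower in CYT1 (21.1% and 36.8%), and 4 were higher and 5 lower in CYT2 (21.1% and 26.3%). The shares over all genes were 18.6% higher and 20.7% lower in CYT1, and 16.1% and 17.6% in CYT2. PHGDH, the first enzyme of serine synthesis, changed by 1.25 ± 0.09 in both comparisons. ATF4 itself changed by 0.34 ± 0.09 in CYT1 (adjusted p = 0.0293) and 0.38 ± 0.09 in CYT2 (adjusted p = 0.0229). The glutamine transporter SLC1A5 changed by -0.73 ± 0.10 and -0.71 ± 0.10, the transcription factor CEBPG by -0.51 ± 0.11 and -0.55 ± 0.11, and DDIT3, a stress-induced transcription factor, by -0.51 ± 0.15 and -0.53 ± 0.15. Of the 6 cytosolic synthetases with the ATF4 element, 0 were called higher in either comparison, against 18.6% and 16.1% of all genes. In CYT1 2 of them were called lower and in CYT2 1. In CYT1 and CYT2, AARS1 stood at 0.10 and 0.01, TARS1 at -0.03 and -0.02, and IARS1 at -0.06 and -0.29. NARS1 stood at -0.16 and -0.18, GARS1 at -0.27 and -0.22, and MARS1 at -0.62 and -0.43. A link between ATF4 and these genes was not tested.

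**Figure D5:**
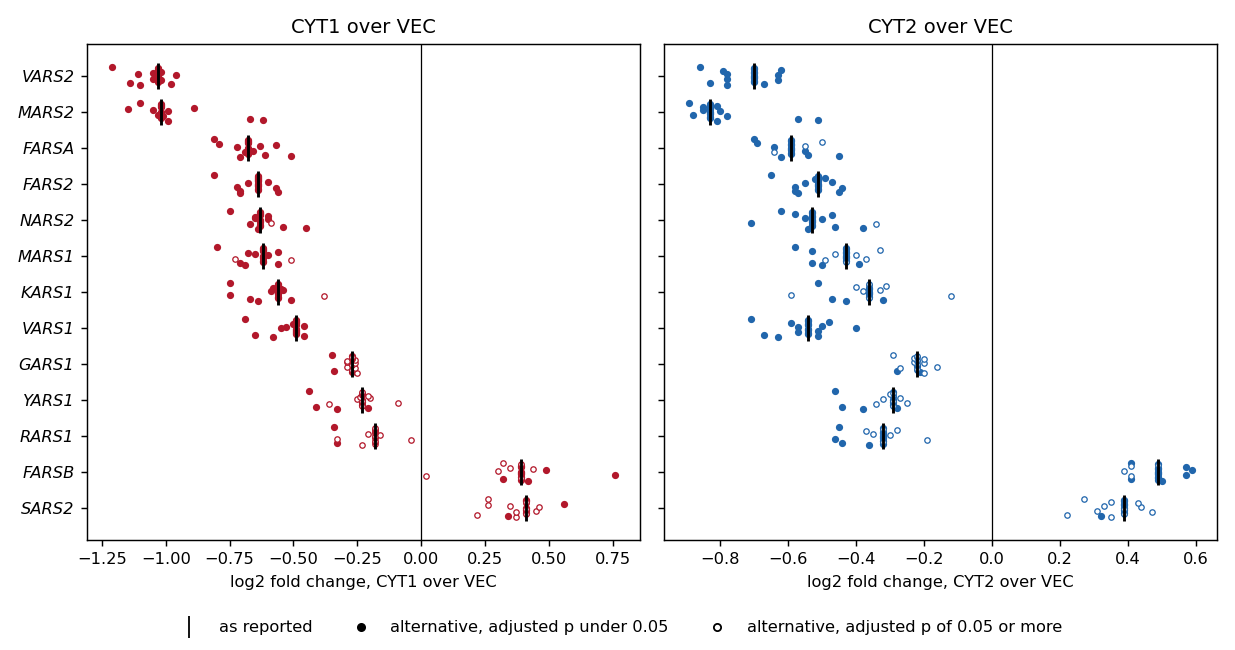
Log2 fold change (x axis) of the 13 called synthetases under 19 alternative settings (points, filled where the adjusted p was under 0.05) with the reported value as a bar, CYT1 over VEC on the left and CYT2 over VEC on the right. VARS2, MARS2, FARS2 and VARS1 have only filled points in both panels. GARS1, YARS1, RARS1, FARSB, SARS2, MARS1, KARS1 and NARS2 have open points in both, and FARSA has them in CYT2 only.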

How the data were processed

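Transcripts were measured on 12 Illumina bead arrays of MCF10A cells, in 3 groups of 2 biological replicates with 2 technical arrays each, as the labels number them. Per the file headers, the authors deposited an average bead intensity and a detection p-value for every probe, without visible background subtraction or normalisation. They also deposited log2 values with no processing stated. These equal log2 of the deposited intensity to within 5e-09, so their scale is known and they are neither centred nor ratios, and through that identity the detection p-values were joined to samples. The scanner software is not given in the sources used here.

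Background was corrected by neqc (limma 3.58.1, R 4.3.3), which infers negative controls from the detection p-values, with an offset of 16 and quantile normalisation to log2 values. Probes stayed in if both technical arrays had a detection p below 0.05 in 2 or more of 6 biological replicates, leaving 17356 of 47323. Technical arrays were averaged. A single limma model (lmFit, eBayes, 3 residual and 3.07 prior degrees of freedom) gave 3 two-sided contrasts, with Benjamini-Hochberg adjustment over all kept probes and calls at an adjusted p under 0.05. The model was tested on simulated data drawn as independent replicates with few probes changed. That test cannot show whether the labelled replicates are independent. The number of arrays limits the precision.

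Symbols came from GEO's platform annotation, with 1 symbol for 30113 probes, several for 8 and no name here for 17202. A gene is represented by its brightest kept probe. All members are named, those called get values per array, and up to 4 called genes are named per related list and contrast. Further genes of these lists were picked with their values in view. The members, lists and motifs were chosen with earlier results of these data known, so classes are described by counts and medians. Alternatives covered scaling, background, filter, averaging, blocks and left-out replicates. Of the listed genes 1, and of the promoter sequences 1, is not reported here. Slide as a block was not run because the headers give no slide. Figures used matplotlib 3.10.9 in Python 3.11.15.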

Additional observations from a re-analysis of the deposited data

How the results depend on the processing

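Of the 11 synthetases called in CYT1, 5 were called under all 19 alternatives (VARS2, MARS2, FARSA, FARS2 and VARS1), and of the 11 called in CYT2, 4 were (MARS2, VARS2, VARS1 and FARS2). No called synthetase changed sign. Among synthetases with no call, 13 of 23 in CYT1 and 12 of 23 in CYT2 were called under some alternative, and 8 in each had the other sign under some alternative. With 2 replicates per group and 3 residual degrees of freedom, small changes lie near the threshold. The fit to the deposited values had infinite prior degrees of freedom, so every probe was given the same variance. The random-block fits had 9 residual degrees of freedom, with consensus correlations of -0.14 for the biological and 0.07 for the technical number. Further calls under these fits are not stronger evidence than the fit as reported. The causes of the changes listed here were not tested. The alternatives chosen after seeing the data were averaging by technical number, the technical number as a random block, and median scaling over all probes. Slide as a block was not run.

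Leaving out 1 replicate at a time gave 3969 to 5688 called probes in CYT1, 3020 to 4921 in CYT2 and 0 to 3 in CYT2 against CYT1. Synthetases called lower were then 8 to 8 in CYT1 and 5 to 9 in CYT2, those called higher 0 to 1 and 0 to 2, and for CYT2 against CYT1 0 to 0 in each direction. Cytosolic medians ran from -0.21 to -0.17 in CYT1, -0.28 to -0.22 in CYT2 and -0.05 to 0.01 between CYT2 and CYT1, and mitochondrial medians from -0.23 to -0.15, -0.24 to -0.19 and -0.06 to 0.01. A group left with 1 replicate is assumed to vary like the others.

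Biological numbers did not pair samples across groups, with correlations of deviations of 0.02, -0.01 and 0. With the replicate block 5719 probes were called in CYT1, 4732 in CYT2 and 2 between CYT2 and CYT1, with 1 synthetase higher in CYT1.

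Called probes in CYT1 numbered 3720 with technical arrays 1 alone and 3931 with technical arrays 2 alone, and in CYT2 2972 and 2937. Between CYT2 and CYT1 they numbered 1 and 2 for these, 51 with median scaling over kept probes, 995 without background correction, 706 with the deposited log2 values, 2 with no detection filter, 346 for probes detected on all arrays, 1094 with the biological number and 532 with the technical number as a random block, and 23 averaged by technical number. Synthetases lower in CYT1 numbered 21 with the deposited log2 values, 18 with median scaling over all probes and 14 with the biological number as a random block. In CYT2 they numbered 21, 17 and 17, 19 without background correction, 6 with no filter and 4 with technical arrays 1 alone. Probes called lower under the same settings numbered 5037, 4648 and 4205 in CYT1, beside 3334 as reported. For CYT2 they numbered 4560, 3757, 3679, 3539, 1811 and 1276, beside 2714 as reported. These are counts of 17356 probes, or of 47323 with no filter. Synthetases higher in CYT1 numbered 0 with no filter, technical arrays 1 alone or median scaling over all probes, and 1 under median scaling over kept probes, deposited values, technical arrays 2 alone, and both fits by technical number. In CYT2 they numbered 0 with technical arrays 1 alone and 2 without background correction, with probes detected on all arrays, with the mean of all probes of a gene and under both random blocks. Probes called higher in CYT1 numbered 2443, 1907 and 2354 under the settings with 0 synthetases, beside 2895 as reported. For CYT2 they numbered 1696 with technical arrays 1 alone and 2939 without background correction, beside 2558 as reported. Under the biological and technical random blocks they numbered 3061 and 2586. Between CYT2 and CYT1, 1 synthetase was higher without background correction, with deposited values and with the biological random block, and 1 lower without background correction.

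The cytosolic median in CYT1 was -0.24 with median scaling over kept probes, -0.33 with deposited values, -0.21 with technical arrays 1 alone, -0.2 with the mean of all probes and -0.35 with median scaling over all probes. In CYT2 it was -0.33, -0.38, -0.21 and, with median scaling over all probes, -0.42. Between CYT2 and CYT1 it was 0 and -0.08 with technical arrays 1 and 2 alone, 0.01 with the mean of all probes and -0.01 with median scaling over all probes. The mitochondrial median in CYT1 was -0.26 with deposited values and -0.31 with median scaling over all probes. In CYT2 it was -0.14 without background correction, -0.19 with technical arrays 1 alone and -0.28 with median scaling over all probes, and between CYT2 and CYT1 it was 0.06 with technical arrays 1 alone.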

Other observations

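Several synthetase genes share a start region with a neighbouring gene on the other strand, with RefSeq starts within 1000 bases. SARS2 and MRPS12, which encodes a protein of the mitochondrial ribosome, had opposite calls in CYT1, at 0.41 (adjusted p = 0.0447) and -0.35 (adjusted p = 0.0182) on the log2 scale by limma. In CYT2 they stood at 0.39 (adjusted p = 0.0584) and -0.21 (adjusted p = 0.0925). FARS2 changed by -0.64 in CYT1, while its neighbour LYRM4, which encodes an iron-sulfur cluster assembly factor, stood at 0.16 (adjusted p = 0.464). In CYT2 FARS2 changed by -0.51 and LYRM4 stood at -0.22 (adjusted p = 0.334). KARS1 and TERF2IP, which encodes a telomere protein, stood at -0.56 and -0.12 (adjusted p = 0.361) in CYT1 and at -0.36 and -0.22 (adjusted p = 0.114) in CYT2.

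WDR25, the neighbour of WARS1, changed by -0.57 in CYT1 (adjusted p = 0.0118) and by -0.68 in CYT2 (adjusted p = 0.00782), where the representing WARS1 probe stood at -0.14 (adjusted p = 0.344) and -0.25 (adjusted p = 0.117). A second WARS1 probe was called lower in CYT1, at -0.36 (adjusted p = 0.0164). HARS1 and HARS2, the cytosolic and mitochondrial histidine enzymes, are such neighbours of each other, and in neither comparison was either called. EARS2 with UBFD1 and RARS2 with ORC3 had no call in either comparison. The difference between a synthetase and its neighbour was not tested for any pair.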
